A study of Mus musculus with 44 samples.

Results

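Expression of 6 genes of the leukaemia inhibitory factor (LIF) and STAT3 pathway was followed across mouse embryonic stem (ES) cells: Lifr, Il6st, Jak1, Stat3, Socs3 and Pim1. The members were all probe sets whose platform symbol is one of these genes, which gave 6 of the 8251 genes with a symbol of their own and 14 probe sets of the 12488 on the Affymetrix MG-U74Av2 array. Lifr had 5, Il6st, Stat3, Socs3 and Pim1 had 2 each and Jak1 had 1, and none carried a second symbol. The values are log2 of the deposited intensity.

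The 44 single-channel arrays measured total RNA of the ES cell line CGR8 (its clone cgr8.8), in a search for targets of the homeodomain factor Hex. All cells other than the wild type carried an insertion at Rosa26, a locus active in most mouse cells, and are labelled either Hex or HexERTVP2. Some HexERTVP2 cells received 4-OHT (4-hydroxytamoxifen, a ligand of the oestrogen receptor). The labels put 40 arrays in 11 groups. Hex cells were recombined (4 arrays) or unrecombined (4 arrays). Clone 1 of HexERTVP2 was recombined with 4-OHT (4 arrays), recombined without it (4), unrecombined with it (3) and unrecombined without it (5). Clone 2 of HexERTVP2 had 3 arrays in each of the same states, and wild-type CGR8.8 cells had 4. In the other 4 arrays the words and the code of the title named different states, and these arrays entered no comparison. HexERTVP2 is represented by 2 clones, no clone is named for Hex, and the dose and duration of 4-OHT are not given in the sources used here. The labels do not state whether a group's arrays are of different cultures, so p-values measure only the spread between arrays, which may be technical.

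Array 2 of unrecombined Hex stood apart from the rest. Its mean correlation with the other assigned arrays was 0.869, against 0.978 to 0.99 for the others, and the standard deviation of its log2 values was 1.6, against 1.79 to 1.98. Because all groups share 1 estimate of the spread, many results are also given without it. The β-actin 3′/5′ log2 ratio, a control that tends to rise where RNA is broken or labelled short, ran from 0.56 to 2.34 over the assigned arrays and was 2.24 on array 2. Of 10 ES cell markers, 9 lay above 6.77, the median of all probe-set means, and their mean per group lay between 9.75 (unrecombined Hex) and 10.14 (wild type). Hhex, the mouse gene for Hex, averaged 6.25 ± 0.15 in recombined Hex, 5.89 ± 0.64 in unrecombined Hex and 6.14 ± 0.06 in wild-type cells (SD, n = 4 each). The probe set therefore did not separate recombined from unrecombined Hex (limma, log2 difference 0.36 ± 0.16 SE, adjusted p = 0.243). The low mean of unrecombined Hex came from array 2, at 4.94. Without it that group averaged 6.20 ± 0.14 (SD, n = 3) and the difference was 0.04 ± 0.08 (adjusted p = 0.829). Directions in that comparison rest on the labels alone. Whether this probe set reads the inserted sequence is not given in the sources used here.

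LIF keeps mouse ES cells in self-renewal in culture. It binds LIFR, which pairs with gp130, the signal-transducing receptor chain encoded by Il6st. The Janus kinase JAK1, bound to the receptors, is then active and STAT3 is phosphorylated, enters the nucleus and binds DNA. Socs3 is a direct STAT3 target whose product inhibits signalling at gp130, and Pim1 is a STAT3 target that encodes a serine/threonine kinase. The arrays measured RNA, not phosphorylation.

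STAT3 binds DNA at sites of the form TTCNNNGAA, so the 250 bases before an annotated start were searched for the 2 targets and for the receptor chain whose level varied most. The sequences are RefSeq's on GRCm38.p6, given 5′ to 3′ on the strand of the gene, and capitals mark a match.
Socs3, chr11:117969367-117969616, minus strand: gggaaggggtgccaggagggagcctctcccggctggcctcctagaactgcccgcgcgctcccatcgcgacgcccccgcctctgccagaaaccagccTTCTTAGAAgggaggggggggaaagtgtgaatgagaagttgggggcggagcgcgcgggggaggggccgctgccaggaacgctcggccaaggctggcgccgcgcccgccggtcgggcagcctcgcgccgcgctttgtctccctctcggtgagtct
Pim1, chr17:29490535-29490784, plus strand: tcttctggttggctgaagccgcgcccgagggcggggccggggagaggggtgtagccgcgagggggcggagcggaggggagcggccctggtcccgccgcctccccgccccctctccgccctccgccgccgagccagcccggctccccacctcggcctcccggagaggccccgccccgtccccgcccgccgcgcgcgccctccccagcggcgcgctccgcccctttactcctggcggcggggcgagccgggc
Il6st, chr13:112463820-112464069, plus strand: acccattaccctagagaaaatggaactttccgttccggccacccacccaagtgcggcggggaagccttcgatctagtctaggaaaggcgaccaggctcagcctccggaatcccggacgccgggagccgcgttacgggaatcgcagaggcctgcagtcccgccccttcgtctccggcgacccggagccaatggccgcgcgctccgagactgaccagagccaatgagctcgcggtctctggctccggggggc
The Socs3 window held 1 match, from 154 to 146 bases before its start. That start is not the start of the RefSeq gene, while those of the printed Pim1 and Il6st windows are. TTCNNNGAA reads the same on both strands. In windows that also take in 50 bases after the start it was found in 8.30% of 32851 promoters and in 1 of the 8 windows of the 6 genes, where Lifr and Pim1 have 2 windows each. The longer form TTCNNNNGAA was in 6.95% of promoters and in none of the 8. A match is a run of letters and not a measured site.

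Among the 14 probe sets, 2 differed among the 11 groups beyond the spread between arrays: Pim1 104533_at (limma moderated F, adjusted p = 0.0159) and Il6st 94345_at (adjusted p = 0.0421). Over all 12422 tested probe sets 5.17% passed the same test. Leaving out 1 array at a time kept Pim1 104533_at in 40 of 40 fits (adjusted p from 0.00192 to 0.0486) and Il6st 94345_at in 15 of 40 (0.000891 to 0.117). Without array 2 of unrecombined Hex 4 of 14 passed, the other two being Lifr 103697_at (adjusted p = 0.0484) and Socs3 162206_f_at (adjusted p = 0.0257), and 12.9% of all probe sets. For the 13 probe sets other than Il6st 94345_at every pair of neighbours in the order of the 11 group means overlapped in their arrays. For Il6st 94345_at 9 of 10 neighbouring pairs did, and the exception was the highest pair, wild type and unrecombined clone 1 without 4-OHT. This overlap was not counted over all probe sets, so how common such an exception is remains unknown.

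Il6st, the gp130 chain shared by LIF and its related cytokines, was lower by the 94345_at probe set in unrecombined HexERTVP2 cells without 4-OHT than in wild-type cells. The 3 arrays of clone 2 read 5.94, 6.42 and 6.33, the 5 of clone 1 read 6.87, 6.82, 6.94, 6.98 and 6.85, and the 4 wild-type arrays read 7.01, 7.01, 7.18 and 7.29. No array of either clone reached a wild-type array, and the clone 2 arrays lay below all clone 1 arrays. Averaged over the clones the level was 6.56 against 7.12, a log2 difference of -0.56 ± 0.15 (SE) or 0.677-fold (adjusted p = 0.0478). Clone 2 alone fell by 0.89 ± 0.19 on the log2 scale (6.23 against 7.12 in wild type, adjusted p = 0.00303). For clone 1 alone the difference was -0.23 ± 0.16 and did not pass (adjusted p = 0.9998). Clone 2 was also lower than clone 1 in this state, by -0.66 ± 0.18 (adjusted p = 0.0406).

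The averaged Il6st difference lay at the edge of the threshold. Leaving out 1 array at a time kept it called in 14 of 40 fits, with adjusted p between 0.00392 and 0.234. Among the fits that lost it were those without wild-type array 1, 2, 3 or 4 (0.0936, 0.0887, 0.111 and 0.234) and without array 1 or 3 of clone 2 (0.107 and 0.0711). The clone 2 difference was called in 40 of 40, and the difference between the clones in 35 of 40. The clone difference was lost without array 1, 3 or 4 of clone 1 (0.0743, 0.0814 and 0.0949) or array 1 or 3 of clone 2 (0.180 and 0.132). Il6st 94345_at fell on arrays with a higher β-actin ratio (slope -0.28 ± 0.07 log2 per unit of the ratio without array 2, adjusted p = 6.82e-04). The ratio itself was lower by 0.26 in unrecombined HexERTVP2 than in wild-type cells. With the ratio as a covariate the averaged difference was -0.66 ± 0.12 (adjusted p = 5.20e-04). Of 9 other settings of the limma fit, this covariate among them, 7 called the averaged difference. It was lost by quantile normalization (adjusted p = 0.0795) and with array numbers as a block (0.0800). The clone difference was lost in the same settings (0.0584 and 0.0606).

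Some markers of primitive endoderm, an early extraembryonic lineage that can arise in ES cultures, were higher in the same clone. Of 10 such genes 3 passed as higher and 0 as lower in unrecombined clone 2 against wild type, where 3.28% of all probe sets passed as higher and 3.5% as lower. The 3 were the basement membrane genes Col4a1 (9.17 in clone 2 against 7.80 in wild type) and Lama1 (7.66 against 7.09) and the factor Sox17 (7.48 against 7.06). Sparc differed the other way, at 8.10 in clone 2 against 8.54 in wild type, without passing (adjusted p = 0.127). The mean of the list per array ran from 7.44 to 7.59 in clone 2 against 7.15 to 7.25 in wild type. The lineage factors Gata4 and Gata6 averaged 8.59 and 6.10 in clone 2 and 8.37 and 5.88 in wild type, and neither passed (adjusted p = 0.191 and 0.178). Of 10 ES cell markers 2 passed as lower and 0 as higher, with a mean of 9.85 to 9.95 in clone 2 against 10.12 to 10.15 in wild type. Of 11 measured fibroblast markers none passed, and their mean ran from 6.56 to 6.74 in clone 2 against 6.51 to 6.57 in wild type. Among the other lists 1 of 5 neuroectoderm and 1 of 4 blood genes passed as higher, 1 of 6 trophoblast genes as higher and 1 as lower, and 0 of 4 mesoderm genes in either direction. Without array 2 of unrecombined Hex, where 25.4% of all probe sets passed, the counts higher and lower were 5 and 1 for primitive endoderm, 1 and 3 for ES cells, 1 and 0 for fibroblasts, 2 and 0 for neuroectoderm and 2 and 0 for mesoderm. Unrecombined clone 2 with 4-OHT shared both features: its primitive endoderm mean was 7.51 and its Il6st 94345_at level was 6.42 ± 0.20. In recombined clone 2 they were 7.23 and 6.42 ± 0.31 with 4-OHT, and 7.23 and 6.72 ± 0.20 without it (SD, n = 3 each). The part of these markers in the Il6st difference was not tested. In bulk RNA fewer cells that express a gene and less RNA per cell cannot be told apart.

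The second Il6st probe set, 98349_at, did not follow the first. It read 6.14, 6.22 and 6.21 in unrecombined clone 2 without 4-OHT and 6.02, 5.87, 6.02 and 5.80 in wild type, so that here clone 2 was the higher one. Averaged over the clones its difference from wild type was 0.19 ± 0.09 and did not pass (adjusted p = 0.342). Across the 11 group means the pair of probe sets had a Pearson r of -0.42. The direction for Il6st therefore rests on 94345_at. Neither probe set was bright: over the 40 assigned arrays they averaged 6.68 (94345_at) and 5.99 (98349_at), below the median probe-set mean of 6.77.

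**Figure D1:**
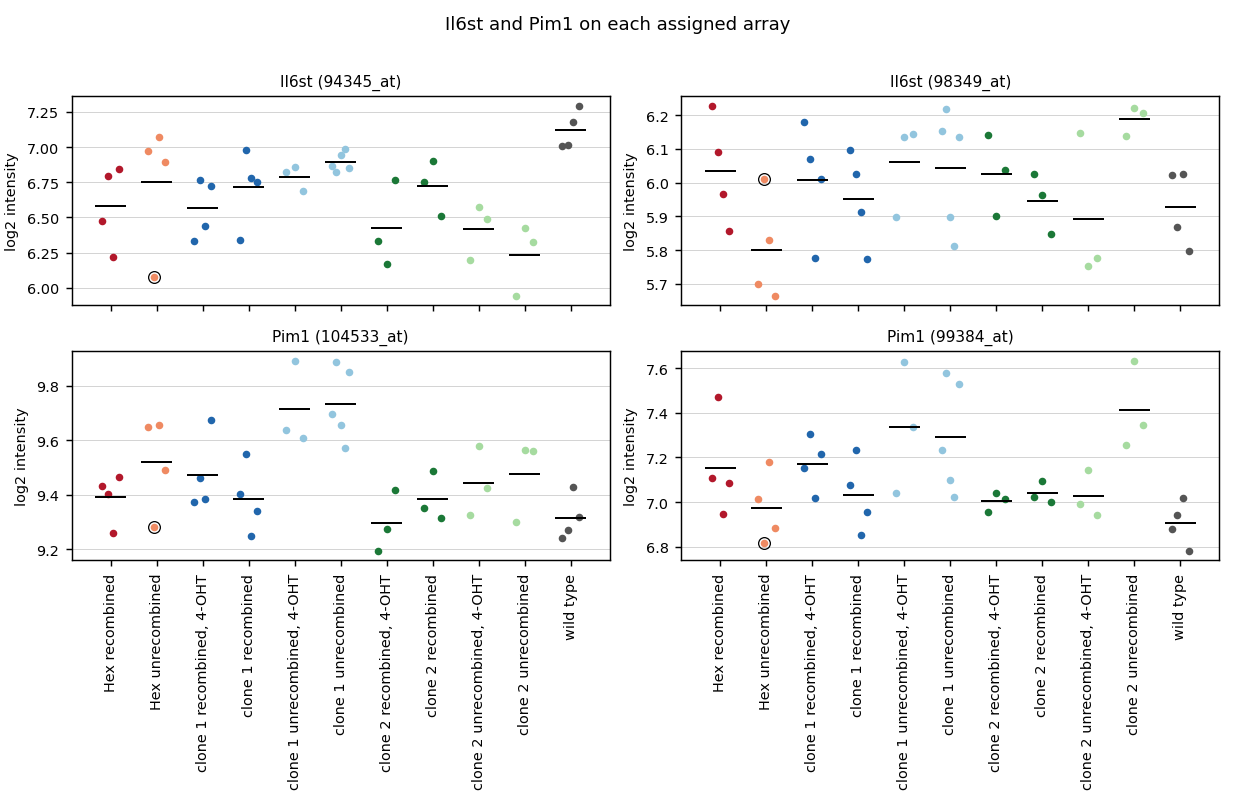
Log2 intensity of both Il6st and both Pim1 probe sets on each of the 40 assigned arrays, by group, with wild type at the right; points are arrays, bars are group means and the circled point is array 2 of unrecombined Hex. Unrecombined clones 1 and 2 without 4-OHT (5.94 to 6.98) lie below all wild-type arrays (7.01 to 7.29) for Il6st 94345_at, and above them (7.02 to 7.63 against 6.78 to 7.02) for Pim1 99384_at.

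Pim1, the STAT3-induced kinase gene, was higher in unrecombined HexERTVP2 cells without 4-OHT than in wild-type cells. By 99384_at clone 2 read 7.25, 7.63 and 7.35, clone 1 read 7.23, 7.58, 7.10, 7.02 and 7.53, and wild type read 6.88, 6.94, 7.02 and 6.78. The groups did not overlap, although the lowest clone 1 array and the highest wild-type array both round to 7.02. The averaged levels were 7.35 and 6.91, a log2 difference of 0.45 ± 0.11 (SE) or 1.36-fold (adjusted p = 0.0263). Clone 2 alone rose by 0.51 ± 0.14 (adjusted p = 0.0209), and the 0.39 ± 0.12 of clone 1 alone did not pass (adjusted p = 0.314). The averaged call held in 34 of 40 fits that each left out 1 array. It was lost without array 2 or 5 of clone 1, array 2 of clone 2 or wild-type array 1, 2 or 4, with adjusted p of 0.0515, 0.0519, 0.0723, 0.0979, 0.0678 and 0.159 in that order. The call for clone 2 alone was lost without its array 2 or 3 (0.0935 and 0.0656) or wild-type array 1 or 4 (0.0505 and 0.0758).

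By the second Pim1 probe set, 104533_at, the difference lay in clone 1. Unrecombined clone 1 without 4-OHT read 9.70, 9.89, 9.65, 9.57 and 9.85, clone 2 in the same state read 9.30, 9.56 and 9.56, and wild type read 9.24, 9.27, 9.43 and 9.32. All clone 1 arrays were above all wild-type arrays, while those of clone 2 overlapped them. Clone 1 rose by 0.42 ± 0.09 over wild type (1.34-fold, adjusted p = 0.0213), clone 2 differed by 0.16 ± 0.10 (adjusted p = 0.313), and the average over the clones was 0.29 ± 0.08 (adjusted p = 0.0719, or 0.0169 without array 2 of unrecombined Hex). The clone 1 call was lost without its array 2 or 5 (0.112 and 0.0872) or wild-type array 1, 2 or 4 (0.126, 0.0936 and 0.0800). The difference between the clones in this state, -0.26 ± 0.10 for clone 2 minus clone 1, did not pass (adjusted p = 0.162). Over the 11 groups 104533_at was highest in unrecombined clone 1, at 9.73 ± 0.13 without and 9.71 ± 0.16 with 4-OHT (SD, n = 5 and 3), and lowest in recombined clone 2 with 4-OHT, at 9.30 ± 0.11 (n = 3). Both Pim1 probe sets fell on arrays with a higher β-actin ratio, by slopes of -0.21 ± 0.04 and -0.30 ± 0.05 without array 2. With the ratio as a covariate the averaged differences from wild type were 0.37 (99384_at, adjusted p = 0.00426) and 0.23 (104533_at, adjusted p = 0.0175).

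In this comparison, unrecombined HexERTVP2 without 4-OHT against wild type, 2 of 14 member probe sets passed, 1 higher and 1 lower. Of all probe sets 1.46% passed, 0.322% higher and 1.14% lower. The arrays of the groups did not overlap for 3 of 14 members, against 2.59% of all probe sets. The median difference was -0.05 over the members and 0.04 over all probe sets. For single clones against wild type, 2 of 14 passed for clone 2 (6.79% of all) and 1 of 14 for clone 1 (0.298%), and 1 of 14 for clone 2 against clone 1 (2.01%). Without array 2 of unrecombined Hex, which is in neither group, the averaged comparison called 5 of 14 members, 2 higher and 3 lower, and 8.13% of all probe sets. Clone 2 alone then had 4 of 14 called, 1 higher and 3 lower, among 25.4% of all. Those added were Lifr 103697_at (-0.63, adjusted p = 0.0337) and Socs3 162206_f_at (-0.74, adjusted p = 0.00375). The wild-type arrays are shared by all comparisons with wild type, which are therefore not independent of each other.

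Lifr, the LIF-binding receptor chain, was read by 5 probe sets, of which 0 passed in any comparison of groups in the main fit of all 40 arrays. The probe set with the highest mean, 103697_at, varied widely within groups. It read 7.46, 6.83 and 6.60 in unrecombined clone 2 without 4-OHT, 7.38, 6.68, 7.34, 7.33 and 6.68 in clone 1, and 7.82, 7.65, 7.38 and 7.51 in wild type. Both clones had arrays inside the wild-type range or at its lower edge and others well below it. The averaged difference was -0.57 ± 0.21 (adjusted p = 0.182), or 0.0420 without array 2 of unrecombined Hex. Its slope on the β-actin ratio was 0.47 ± 0.09 without array 2 (adjusted p = 4.56e-05), and the averaged difference with the ratio as a covariate was -0.50 ± 0.20 (adjusted p = 0.117). With both the covariate and array 2 left out it was -0.45 (adjusted p = 0.0188). The other 4 Lifr probe sets had group means between 4.87 and 6.46. Their group means spanned 0.20 to 0.40, or up to 0.32 without array 2, and their differences from wild type in this state lay between -0.11 and 0.07. Across group means 103697_at had an r of 0.34, 0.34, 0.16 and -0.65 with 104658_at, 104657_at, 104659_g_at and 97006_s_at, so the Lifr probe sets did not move together.

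Jak1, the receptor-bound kinase, varied little. Its 11 group means ran from 7.30 in unrecombined Hex to 7.48 in unrecombined clone 2 with 4-OHT, and 39 of its 40 assigned values fell between 7.23 and 7.56. The remaining one was 6.94 on array 2 of unrecombined Hex. In the 9 averaged comparisons its difference lay between -0.15 and 0.12 and none passed. Against wild type the difference of unrecombined HexERTVP2 was -0.06 (95% interval -0.22 to 0.10). Its slope on the β-actin ratio without array 2 was 0.05 ± 0.04 and did not pass (adjusted p = 0.296).

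Stat3, the transcription factor of the pathway, showed no difference between groups that passed in the main fit. By 99099_at recombined Hex read 8.89, 9.23, 9.07 and 9.16, unrecombined Hex read 8.89, 9.18, 8.98 and 8.91, and wild type read 8.82, 8.92, 9.12 and 8.93. These arrays overlapped throughout, and the 11 group means spanned 0.15. By 99100_at the group means spanned 0.37, or 0.24 without array 2 of unrecombined Hex, which read 6.99 against 7.82 to 8.08 on the other 3 arrays of its group. For unrecombined HexERTVP2 without 4-OHT against wild type the 95% intervals were -0.06 to 0.27 (99099_at) and -0.34 to 0.25 (99100_at). The slope of 99100_at on the β-actin ratio without array 2 was -0.37 ± 0.05 (adjusted p = 4.05e-08).

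Socs3, the feedback inhibitor of gp130 signalling, read lower in unrecombined HexERTVP2 than in wild type by 162206_f_at, but the difference did not pass in the main fit. This probe set read 8.08, 7.53 and 7.50 in clone 2 without 4-OHT, 8.14, 7.91, 8.05, 8.03 and 7.86 in clone 1, and 8.53, 8.55, 8.36 and 8.33 in wild type. All 8 HexERTVP2 arrays lay below all 4 wild-type arrays. The averaged difference was -0.59 ± 0.21 (adjusted p = 0.159). It passed with array weights (-0.65, adjusted p = 0.00111) and in a fit of the compared groups alone (adjusted p = 0.00795). The adjusted p was 0.00868 without array 2 of unrecombined Hex, on which this probe set read 6.89 against 8.42 to 8.57 on the other 3 arrays of its group. By 92232_at the difference was -0.27 ± 0.18 (adjusted p = 0.470), and the arrays overlapped: 7.62 to 8.37 in clone 2, 7.81 to 8.24 in clone 1 and 8.16 to 8.60 in wild type. The pair of Socs3 probe sets had slopes of opposite sign on the β-actin ratio without array 2, 0.24 ± 0.09 for 162206_f_at and -0.41 ± 0.06 for 92232_at. With the ratio as a covariate and without array 2, both passed as lower than wild type, by -0.53 (adjusted p = 0.00564) and -0.38 (adjusted p = 0.00222).

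**Figure D2:**
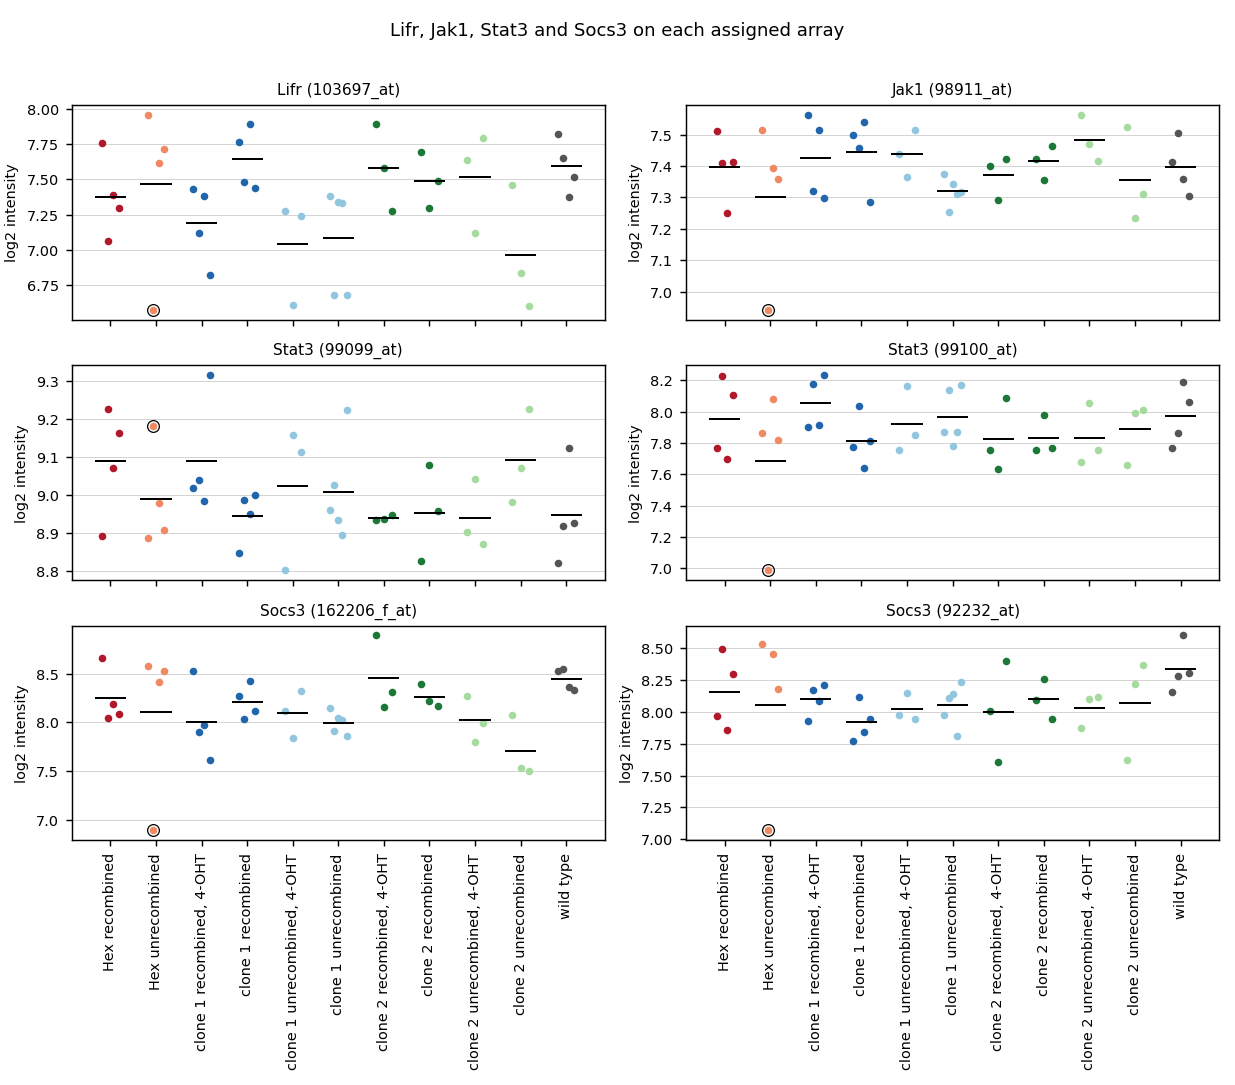
Log2 intensity of Lifr 103697_at, Jak1, both Stat3 and both Socs3 probe sets on the 40 assigned arrays, by group; points are arrays, bars are group means and the circled point is array 2 of unrecombined Hex. That array is the lowest of its group in 5 of the 6 panels, and for Socs3 162206_f_at all unrecombined HexERTVP2 arrays without 4-OHT (7.50 to 8.14) lie below the wild-type arrays (8.33 to 8.55).

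Recombined and unrecombined Hex cells were compared as labelled. The Hhex probe set did not separate them, so the comparison does not show whether the pathway genes respond to Hex. None of the 14 member probe sets passed for recombined against unrecombined Hex (limma; 2 at an unadjusted p under 0.05), where 3.37% of all probe sets did. The differences ran from -0.27 (Lifr 104658_at, adjusted p = 0.154) to 0.27 (Stat3 99100_at, adjusted p = 0.438), with a median of 0.08 over the members and 0.01 over all. Il6st 94345_at read 6.48, 6.79, 6.22 and 6.84 in recombined Hex against 6.97, 6.08, 7.07 and 6.89 in unrecombined Hex. The groups overlapped through array 2, which gave the 6.08, and did not overlap without it. Its difference was -0.17 ± 0.17, and -0.40 without array 2 (adjusted p = 0.125). With array 2 left out and the β-actin ratio as a covariate Il6st 94345_at (-0.42, adjusted p = 0.0175) and Pim1 104533_at (-0.23, adjusted p = 0.0239) passed as lower in recombined Hex.

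Set against wild type, recombined Hex had 0 of 14 members called (1 at an unadjusted p under 0.05) and 0.266% of all probe sets. Il6st 94345_at was again the member that stood lowest against wild type, at 6.58 ± 0.29 against 7.12 ± 0.14 (SD, n = 4 each), with no overlap between the groups. Groups did not overlap for 10.3% of all probe sets in this comparison. Its difference of -0.54 ± 0.17 did not pass (adjusted p = 0.330), and without array 2 of unrecombined Hex it did (adjusted p = 0.0451), as the 1 member among 1.37% of all probe sets. Unrecombined Hex against wild type called 0 of 14 members (3 at an unadjusted p under 0.05) and 4.82% of all. Il6st 94345_at differed there by -0.37 ± 0.17 (adjusted p = 0.178) and by -0.15 without array 2. Pim1 104533_at differed by 0.20 ± 0.10 (adjusted p = 0.179) and by 0.28 without array 2, which did not pass either. It passed with the β-actin covariate (0.27, adjusted p = 0.00923; with array 2 also left out 0.29, adjusted p = 0.00477), by quantile normalization (0.38, adjusted p = 0.00544) and with array weights (0.33, adjusted p = 0.000333).

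In the main fit the addition of 4-OHT moved no member past the threshold. Among 9 other settings 1, array weights, called Il6st 94345_at as lower in recombined clone 2 alone (-0.42 ± 0.10, adjusted p = 0.0143). In recombined HexERTVP2 0 of 14 passed (0 at an unadjusted p under 0.05), and 0.0322% of all probe sets. The member differences lay between -0.22 (Il6st 94345_at, 95% interval -0.49 to 0.04) and 0.12 (Stat3 99100_at, -0.14 to 0.37). In unrecombined HexERTVP2 0 of 14 and 0% of all probe sets passed (0 and 169 at an unadjusted p under 0.05). There the members ran from -0.17 (Pim1 99384_at, -0.37 to 0.03) to 0.26 (Lifr 103697_at, -0.12 to 0.63). The interaction, which asks whether 4-OHT acts differently in recombined cells, called 0 of 14 members (0 unadjusted) and 0.0161% of all. These intervals bound the 4-OHT difference averaged over the clones and do not show that the genes stayed the same. In each clone alone 0 of 14 members passed, beside 0.00805% of all probe sets in recombined clone 1 and 0% otherwise. The member differences ran from -0.46 to 0.24 in recombined clone 1 and from -0.30 to 0.19 in recombined clone 2. They ran from -0.10 to 0.155 in unrecombined clone 1 and from -0.38 to 0.55 in unrecombined clone 2. In the last, 2 members and 1097 of all probe sets had an unadjusted p under 0.05.

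**Figure D3:**
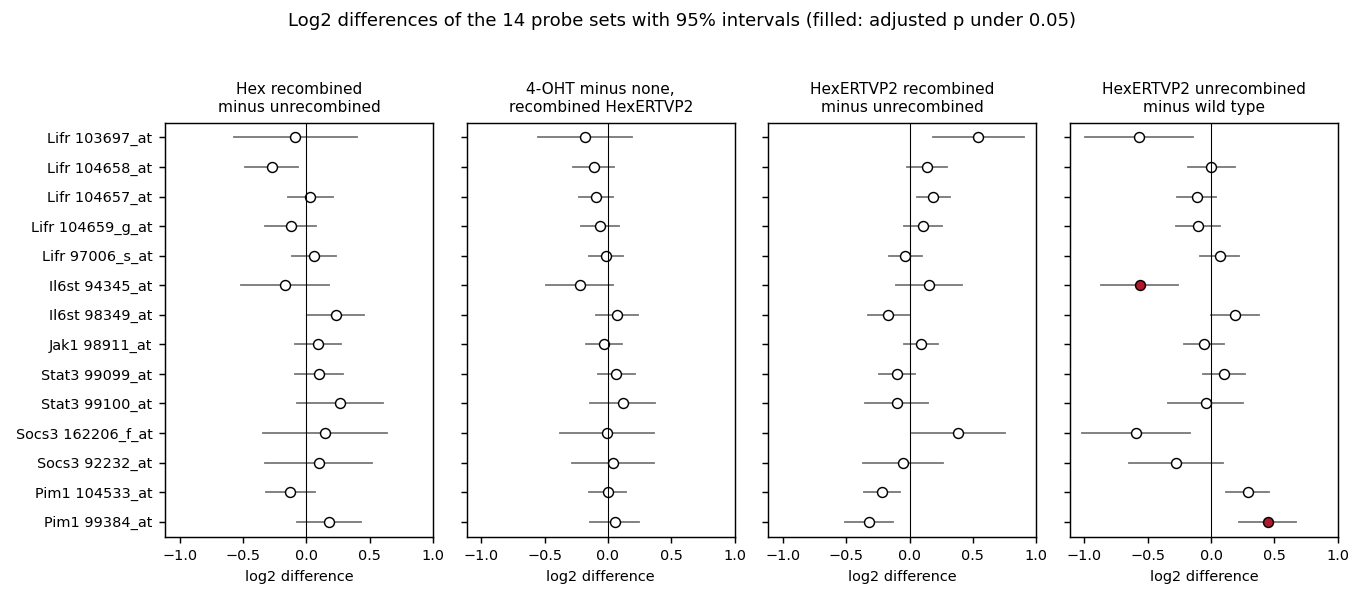
Log2 differences of the 14 member probe sets with 95% intervals (x axis, log2 units) in 4 comparisons; filled points have an adjusted p under 0.05. The filled points are Il6st 94345_at (-0.56) and Pim1 99384_at (0.45), both in unrecombined HexERTVP2 minus wild type.

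Recombination of HexERTVP2 without 4-OHT called 0 of 14 members (6 at an unadjusted p under 0.05) and 0.467% of all probe sets. Lifr 103697_at had the greatest difference, at 7.57 in recombined against 7.02 in unrecombined cells (0.54 ± 0.18, adjusted p = 0.206), and Pim1 99384_at was at 7.04 against 7.35 (-0.32 ± 0.09, adjusted p = 0.137). Without array 2 of unrecombined Hex both passed, at 0.0382 and 0.0458, among 3.38% of all probe sets. The β-actin ratio was higher by 0.44 in the recombined cells, and with it as a covariate, and array 2 left out, the values were 0.34 (adjusted p = 0.0958) and -0.19 (adjusted p = 0.119). In clone 1 alone and clone 2 alone 0 of 14 passed, and 0.547% and 0.322% of all. With array 2 of unrecombined Hex left out clone 1 had 2 of 14 called among 1.32% of all, Pim1 104533_at (-0.35, adjusted p = 0.0199) and Lifr 104657_at (0.30, adjusted p = 0.0477), and clone 2 had 0. Il6st 94345_at differed by -0.18 ± 0.16 in clone 1 and 0.49 ± 0.20 in clone 2, and the difference between these, 0.67 ± 0.26, did not pass (adjusted p = 0.509). With the β-actin covariate the clone 2 difference passed (0.60, adjusted p = 0.0437; with array 2 also left out 0.58, adjusted p = 0.00645).

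Clone 2 against clone 1, averaged over the 4 states, called 0 of 14 members (2 at an unadjusted p under 0.05) and 1.22% of all probe sets. Both of those members were lower in clone 2: Il6st 94345_at at 6.45 against 6.74 (-0.29 ± 0.09, adjusted p = 0.162) and Pim1 104533_at at 9.40 against 9.58 (-0.18 ± 0.05, adjusted p = 0.0976). Without array 2 of unrecombined Hex both passed, at 0.0242 and 0.0278, among 3.25% of all probe sets. The β-actin ratio differed between the clones by -0.01. In recombined cells without 4-OHT the clones had 0 of 14 members and 0.266% of all probe sets called, and Il6st 94345_at differed by 0.01 ± 0.19.

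Within groups, 11 of 14 member probe sets changed with the β-actin ratio once array 2 was left out, 4 upward and 7 downward. Of all probe sets 58.7% did, 36.1% upward and 22.6% downward. Slopes that passed ran from -0.41 (Socs3 92232_at) to 0.47 (Lifr 103697_at). The 3 without a call were Lifr 97006_s_at, Il6st 98349_at and Jak1. Probe sets of the same gene differed in sign for Lifr and Socs3, so that one reading of such a gene rose and another fell with the ratio.

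**Figure D4:**
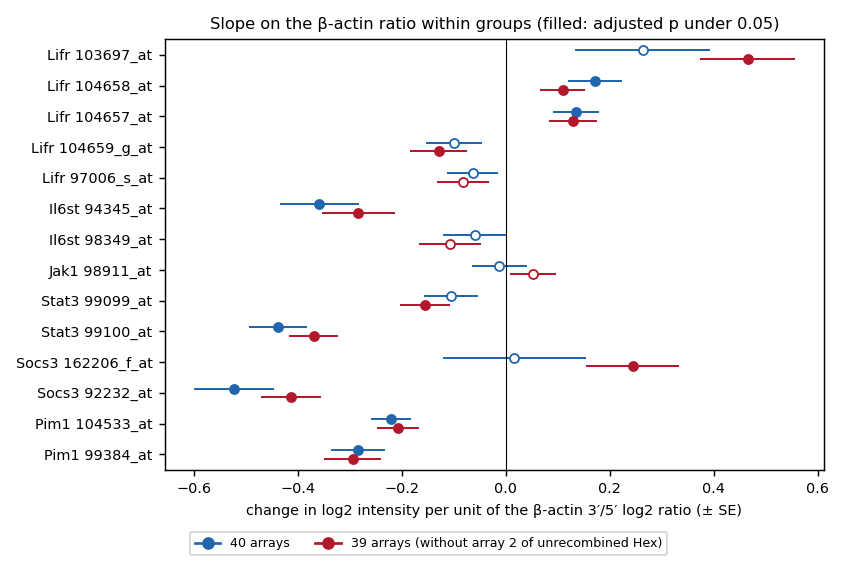
Slope of each member probe set on the β-actin 3′/5′ log2 ratio within groups (x axis, log2 intensity per unit of the ratio, ± SE) with 40 arrays and with the 39 that leave out array 2 of unrecombined Hex; filled points have an adjusted p under 0.05. With 39 arrays the slopes run from -0.41 for Socs3 92232_at to 0.47 for Lifr 103697_at.

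Of 90 further genes of the pathway, in lists of cytokines, receptors, JAK and STAT members, inhibitors, kinases of the RAS/MAPK and PI3K arms, and LIF and STAT3 targets, 72 were measured, each by 1 probe set. In recombined against unrecombined Hex 6 rose and 3 fell. The rises were Irf1 (0.73 ± 0.11), a STAT-induced transcription factor, Nanog (0.65 ± 0.15), a pluripotency factor, the kinase genes Jak3 (0.52 ± 0.13) and Yes1 (0.41 ± 0.10), the inhibitor Socs1 (0.44 ± 0.11) and the factor Tbx3 (0.32 ± 0.09). The falls were Gbx2 (-1.14 ± 0.21), a homeobox gene that LIF induces in ES cells, the adhesion gene Icam1 (-0.98 ± 0.26) and the small GTPase Mras (-0.52 ± 0.10). Their adjusted p lay between 7.5e-05 (Irf1) and 0.0399 (Tbx3). Without array 2 the counts were 5 and 7 (16.7% beside 6.26% of all probe sets), and Socs1 (adjusted p = 0.0612) and Yes1 (adjusted p = 0.0611) were lost. With all arrays the pathway genes passed in 12.5% of cases in this comparison, beside 3.37% of all probe sets. The lists were chosen with earlier results of these data known, and each gene is read by its brightest probe set. These shares, and those of the next paragraph, are therefore no test of the pathway. The 6 members themselves did not pass.

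In unrecombined Hex against wild type 1 listed gene rose and 8 fell, in unrecombined HexERTVP2 without 4-OHT against wild type 0 rose and 3 fell, and in recombined against unrecombined HexERTVP2 0 rose and 1 fell. These are 12.5%, 4.17% and 1.39% of the 72 listed genes, beside 4.82%, 1.46% and 0.467% of all probe sets. The 3 were Tfcp2l1 (-0.63 ± 0.14, adjusted p = 0.0118), a STAT3 target and self-renewal factor, Nanog (-0.59 ± 0.13, adjusted p = 0.0103) and Ptpn6 (-0.31 ± 0.08, adjusted p = 0.0397), a phosphatase gene. Without array 2 of unrecombined Hex 1 rose and 11 fell there, 16.7% beside 8.13% of all. The counts higher and lower were then 3 and 4 for unrecombined Hex against wild type (9.72% beside 3.63% of all). For recombined against unrecombined HexERTVP2 they were 7 and 3 (13.9% beside 3.38% of all). In unrecombined HexERTVP2 without 4-OHT against wild type Socs2, another feedback inhibitor, then passed at -0.61 (adjusted p = 0.00542). Klf4, a LIF-induced self-renewal factor, passed there at -0.59 (adjusted p = 0.00238). The 1 in recombined HexERTVP2 was Pim2, a kinase gene related to Pim1 (8.90 against 9.72, -0.83 ± 0.18, adjusted p = 0.0188). With all arrays no listed gene passed for 4-OHT, with or without recombination, or for the interaction. None passed either for recombined Hex against wild type or clone 2 against clone 1. Without array 2 of unrecombined Hex the 4-OHT comparisons and the interaction still had 0. Recombined Hex against wild type then had 3 lower and 0 higher (4.17% beside 1.37% of all). They were Pim2 (-0.90, adjusted p = 0.00634), Tfcp2l1 (-0.64, adjusted p = 1.45e-06) and Ptpn6 (-0.35, adjusted p = 0.0295). Clone 2 against clone 1 had 5 lower and 0 higher (6.94% beside 3.25%), among them Pim2 (-0.37), Gbx2 and Klf4 (-0.34 each). No listed cytokine (3 measured) or receptor (5 measured) passed in any of these comparisons.

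The genes whose 11 group means were most like those of a member were taken as the 3 with the highest Pearson r, over about 5600 probe sets of 1 symbol with a mean at or above the median, each member by its brightest probe set. For Il6st 94345_at they were Dnaaf5 (0.97), Zfp105 (0.94) and Mrps2 (0.92), and each stayed at 0.94 or above without array 2 of unrecombined Hex. For Pim1 104533_at they were Slc7a7 (0.85), Eci1 (0.83) and Dlx3 (0.82). Lifr 103697_at was nearest to Wtap (0.97), Ube2d3 and Phtf2 (0.92 each), Stat3 99099_at to Surf4 (0.95), Grb2 (0.94) and Git1 (0.93), and Jak1 to Rac1 (0.83), Dsg2 and Stx12 (0.80 each), where Dsg2 was at 0.45 without array 2. For Socs3 162206_f_at they were Scamp1 (0.95), Lsm14b (0.94) and Sod2 (0.93), and the value for Scamp1 was 0.38 without array 2. Group means share arrays and the β-actin gradient, so these values describe likeness only.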

How the data were processed

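The series table holds 1 deposited intensity per probe set for each of 44 arrays, on a linear scale, with array medians from 106 to 112. Per the submitters' processing notes the intensity values were made with RMA, without a version or settings, and values were taken to log2 with no pseudocount. Arrays have no read depth, so precision is set by how many there are. Symbols came from GEO's platform annotation: 10833 tested probe sets had 1 symbol, 396 several and 1193 none. Of 12488 probe sets 66 controls were left out and 12422 tested.

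A model of 11 group means was fitted with limma 3.58.1 under R 4.3.3 (lmFit, eBayes, 29 residual degrees of freedom), with Benjamini-Hochberg adjustment over all tested probe sets and a threshold of 0.05. Differences carry SEs and group levels SDs. Members were all named; for a listed gene the brightest probe set on average was taken, and likeness by the 3 highest r. The members, pathway lists, markers, left-out array and β-actin covariate were chosen with earlier results of these data known, so none is independent support. The fits were tested on simulated data. Same-numbered arrays were checked for pairing by a rule that asks every pair of a comparison to have a correlation of residuals over 0.1. No comparison met it (1 of 4 pairs in recombined against unrecombined Hex, 11 of 18 in recombination of HexERTVP2). The main fits therefore used no pairing, although a weaker link between same-numbered arrays could fail this rule. The median correlation was 0.124 for same-numbered and -0.067 for other-numbered arrays. No 2 arrays held identical values. Plots used Python 3.11.15 and matplotlib 3.10.9.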

Additional observations from a re-analysis of the deposited data

Results flagged for a closer look

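In groups of 4 or 5 arrays, 84 combinations of member probe set and group were examined for a single array far from the rest, and 3 were found. Chance alone gives about 1 in 20. Lifr 104659_g_at read 4.95 on array 4 of unrecombined Hex, with the nearest other array of the group at 5.18. Stat3 99099_at read 9.32 on array 4 of recombined clone 1 with 4-OHT, with the nearest at 9.04. Socs3 162206_f_at read 6.89 on array 2 of unrecombined Hex, with the nearest at 8.42.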

How the results depend on the processing

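Of 13186 recomputed member values 380 changed sign, all with neither value past the threshold, and no called value turned. Counts below are probe sets called over all, then member probe sets, and the cause of each shift was not tested. With all arrays the counts were 419 and 0 for recombined against unrecombined Hex, 33 and 0 for recombined Hex and 599 and 0 for unrecombined Hex against wild type, 4 and 0 for 4-OHT in recombined cells, 2 and 0 for the interaction, 58 and 0 for recombination of HexERTVP2, 151 and 0 for clone 2 against clone 1, 181 and 2 for unrecombined HexERTVP2 against wild type, and 642 and 2 for differences among groups. In the same order array weights gave 1442 and 1, 266 and 1, 1543 and 1, 97, 24, 559 and 5, 728 and 2, 1372 and 5, and 4236 and 10. The β-actin covariate gave 656, 61 and 1, 862 and 1, 12, 4, 93, 333 and 2, 479 and 4, and 1185 and 3. With array 2 of unrecombined Hex left out as well it gave 1638 and 2, 613 and 1, 903 and 1, 35, 10, 428, 761 and 2, 2480 and 6, and 2967 and 6. For the remaining settings only some counts are listed, and a missing count does not mean that it stayed the same. Fitting the compared groups alone gave 8 for recombined against unrecombined Hex, 14 for unrecombined Hex against wild type, 7 for the interaction, 103 for recombination, 299 and 1 for the clones and 548 for unrecombined HexERTVP2. A threshold of 0.10 gave 656 for recombined against unrecombined Hex, 977 and 1 for unrecombined Hex, 8 for 4-OHT in recombined cells, 113 for recombination, 1 member for the clones and 331 for unrecombined HexERTVP2. Quantile normalization gave 1 member for unrecombined Hex, 1 for the interaction, 89 for recombination and 1 member among groups. A filter on dim probe sets, which removes Il6st 94345_at, gave 2 for 4-OHT in recombined cells, 1 for the interaction, 36 for recombination, 96 for the clones, 114 and 1 for unrecombined HexERTVP2 and 1 member among groups. By quantile normalization Il6st 94345_at lost its calls for unrecombined HexERTVP2 against wild type (-0.59, adjusted p = 0.0795) and for clone 2 against clone 1 in that state (0.0584). Pim1 104533_at lost its clone 1 call with a trended, robust prior (0.0556). The array numbers did not meet the rule for pairs, and the labels do not say what they stand for. A replicate block gave 488 for recombined against unrecombined Hex, 1 member for unrecombined HexERTVP2 against wild type and 0 members among groups. Under it Il6st 94345_at lost its averaged call (0.0800), its clone difference (0.0606) and its call among groups (0.0502), and Pim1 104533_at its clone 1 call (0.117) and its call among groups (0.0588).

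Leaving out 1 array at a time gave 233 to 778 probe sets (0 members) for recombined against unrecombined Hex, 26 to 170 (0 to 1) for recombined Hex and 378 to 1595 (0 to 1) for unrecombined Hex against wild type. It gave 3 to 18 (0) for 4-OHT in recombined cells, 0 in unrecombined cells, 1 to 8 (0) for the interaction and 25 to 420 (0 to 2) for recombination. It gave 125 to 404 (0 to 2) for the clones, 85 to 1010 (0 to 5) for unrecombined HexERTVP2 and 542 to 1599 (1 to 4) among groups. Most of the highest counts came without array 2 of unrecombined Hex. Dim members such as Lifr 97006_s_at, at a mean of 4.99, lie where background limits what the array resolves.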

Other observations

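On the 4 arrays whose titles contradict themselves, which belong to no comparison, all 14 member probe sets lay inside the range of the assigned arrays. Il6st 94345_at read 6.55, 6.61, 6.64 and 6.64 on them, within 5.94 to 7.29. Pim1 99384_at read 6.83, 6.86, 6.96 and 7.07, and Pim1 104533_at read 9.22, 9.28, 9.52 and 9.59.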
